A study of Populus yunnanensis with 9 samples.

Results

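The genes described here were 4 NAC and 4 MYB transcription factor genes of poplar that act as regulators of the secondary cell wall, 8 of the 41335 genes listed. They were given by a list of gene identifiers, which holds no measured values but was made with earlier results of these data known: WND1A (Potri.011G153300.v3.0), WND1B (Potri.001G448400.v3.0), WND2A (Potri.014G104800.v3.0) and WND2B (Potri.002G178700.v3.0) for the NAC genes, and MYB002 (Potri.001G258700.v3.0), MYB003 (Potri.001G267300.v3.0), MYB020 (Potri.009G061500.v3.0) and MYB021 (Potri.009G053900.v3.0) for the MYB genes. The names came with that list. The deposited tables give identifiers only and no annotation was used here, so the names, the genome positions and the leaf label itself were not checked against annotated genes or markers.

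Secondary walls are the thick, lignified layers laid down inside the primary wall by xylem vessels and fibres, in wood and also in the veins of leaves. WND genes (for wood-associated NAC domain) encode switches at the top of this programme, and WND1 and WND2 are the poplar relatives of NST1 and SND1, which turn on fibre wall thickening in Arabidopsis. They activate a second tier of MYB factors, among them the poplar relatives of MYB46 and MYB83 of Arabidopsis (here MYB002, MYB003, MYB020 and MYB021), which in turn bind promoters of cellulose, xylan and lignin genes. WND1A with WND1B, WND2A with WND2B, MYB002 with MYB021 and MYB003 with MYB020 are pairs of close paralogs.

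The plants were rooted cuttings of wild Yunnan poplar (Populus yunnanensis), 72 cuttings from 15 trees grown in 24 pots, so plants may differ in genotype. Leaves 4 to 6 from the apex were taken after 60 d from control plants without added Cd or nitrogen (CK), from plants given 40 mg Cd per kg of dry soil as CdCl2 every 5 d, up to 480 mg per kg (Cd), and from plants given the same Cd with 30 mg N per kg as NH4HCO3 at each addition, up to 360 mg N per kg (Cd + N). Each group had 3 libraries of total leaf RNA, and the sources used here do not say which trees or pots a library came from. The p-values therefore measure the spread between these libraries. Over all genes, 2 libraries lay nearest to a library of another group: Cd replicate 1 to CK replicate 1, at a root mean square difference of 0.710 in log2 CPM, and CK replicate 2 to Cd + N replicate 3, at 0.810. Groups are used as labelled, but the group means and fold changes depend on these labels, and whether both libraries belong where they are labelled was not established. Fold changes without each of these 2 libraries are given after the main ones. Total counts on genes were between 31952278 and 40101176 per library. Levels are given as FPKM, read counts scaled to the length of the gene and to the total count of the library, so that genes can be compared with each other. In RNA from whole leaves, fewer cells of a type and less RNA per cell cannot be told apart.

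The regulators were weakly expressed in these leaves, apart from WND1B in some libraries. The mean over 9 libraries was 3.51 FPKM for WND1B, higher than that of 58.1% of all genes listed, including those without any count. Its median was 1.62 FPKM, and in Cd replicate 2 it lay above only 37.5% of the listed genes. For WND1A the mean was 0.405 FPKM. The other 6 genes had means from 0.0153 FPKM (MYB020) to 0.134 FPKM (WND2B), and no library held more than 36 reads of any of them. Only WND1B had a read in all 9 libraries, whereas 21.6% of the genes with any count lacked one in at least 1 library. WND1B alone made up 66.7% to 97.6% of the summed FPKM of the 4 NAC genes in a library. The summed FPKM of the 4 MYB genes was 1.03 in CK replicate 1 and at most 0.445 in each other library, and it was 0 in Cd replicate 3.

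**Figure D1:**
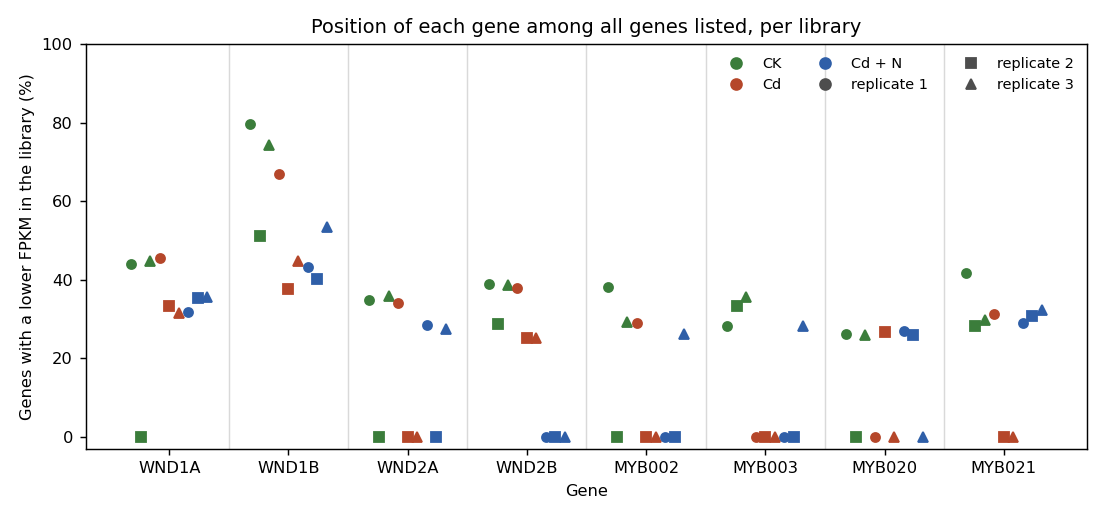
Share of all listed genes with a lower FPKM than the gene, in percent (vertical axis), for each regulator (horizontal axis) in each of the 9 libraries, by group (colour) and replicate (marker). WND1B reaches 79.6% in CK replicate 1, and points at 0 are libraries without a read of that gene.

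WND1B, one of the NAC switches, had 11.2, 1.62 and 8.52 FPKM in CK replicates 1, 2 and 3. Under Cd treatment it had 5.20, 0.344 and 0.980 FPKM, and under Cd + N treatment 0.789, 0.558 and 2.31 FPKM. CK replicates 1 and 3 and Cd replicate 1 stood above the other 6 libraries, and each pair of groups overlapped. The group means were 7.12 ± 4.95 FPKM (SD, n = 3) in CK, 2.18 ± 2.64 for Cd and 1.22 ± 0.951 for Cd + N. The highest library exceeded the lowest of its own group 6.93 times in CK, 15.1 times under Cd and 4.14 times under Cd + N. In this order, neither CK and Cd nor Cd and Cd + N had means farther apart than the larger SD of the pair, whereas CK and Cd + N did.

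WND1A, the other copy of this pair, had 0.825, 0 and 0.973 FPKM in CK replicates 1, 2 and 3. It had 0.962, 0.159 and 0.110 FPKM under Cd and 0.115, 0.255 and 0.247 FPKM under Cd + N. The same 3 libraries were the highest as for WND1B, while CK replicate 2 had no read of the gene. In that library a count of 0 allows up to 3 counts. The groups overlapped in every comparison, and the means were 0.599 ± 0.524 FPKM (SD, n = 3) in CK, 0.410 ± 0.478 for Cd and 0.206 ± 0.0788 for Cd + N.

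WND2B, of the second NAC pair, was the gene with the clearest step between groups. It had 36, 3 and 34 reads in CK replicates 1, 2 and 3, or 0.397, 0.0398 and 0.422 FPKM. Under Cd it had 23, 1 and 1 reads (0.318, 0.0128 and 0.0124 FPKM), and under Cd + N it had 0 reads in each of the 3 libraries. Cd + N therefore did not overlap with CK or with Cd, though CK replicate 2 and Cd replicates 2 and 3 held no more than 3 reads each. With Cd + N set to its limit of 3 counts and the summed reads of CK and Cd taken as observed, CK was 24.4-fold and Cd 8.93-fold higher than Cd + N. The first value lay from 15.9-fold to 33.8-fold with single libraries left out, an alternative chosen after the values were seen. The second rested on Cd replicate 1, which held 23 of the 25 Cd reads: without it 2 reads were left, under the limit of 3, and no value could be given. The CK and Cd reads carry counting error of their own, so the ratios can be lower than these values. Differences between plants are not covered either. Groups that did not overlap, with Cd + N lower, were found in 9.43% of all genes with a count against CK and in 7.33% against Cd, and WND2B was 1 of the 8 regulators in each case.

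WND2A, its paralog, had 9, 0 and 11 reads in CK replicates 1, 2 and 3, 6, 0 and 0 under Cd and 2, 0 and 2 under Cd + N. This corresponded to 0.155 ± 0.139, 0.0545 ± 0.0944 and 0.0321 ± 0.0279 FPKM (SD, n = 3 each). Its 3 highest libraries were again CK replicates 1 and 3 and Cd replicate 1.

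**Figure D2:**
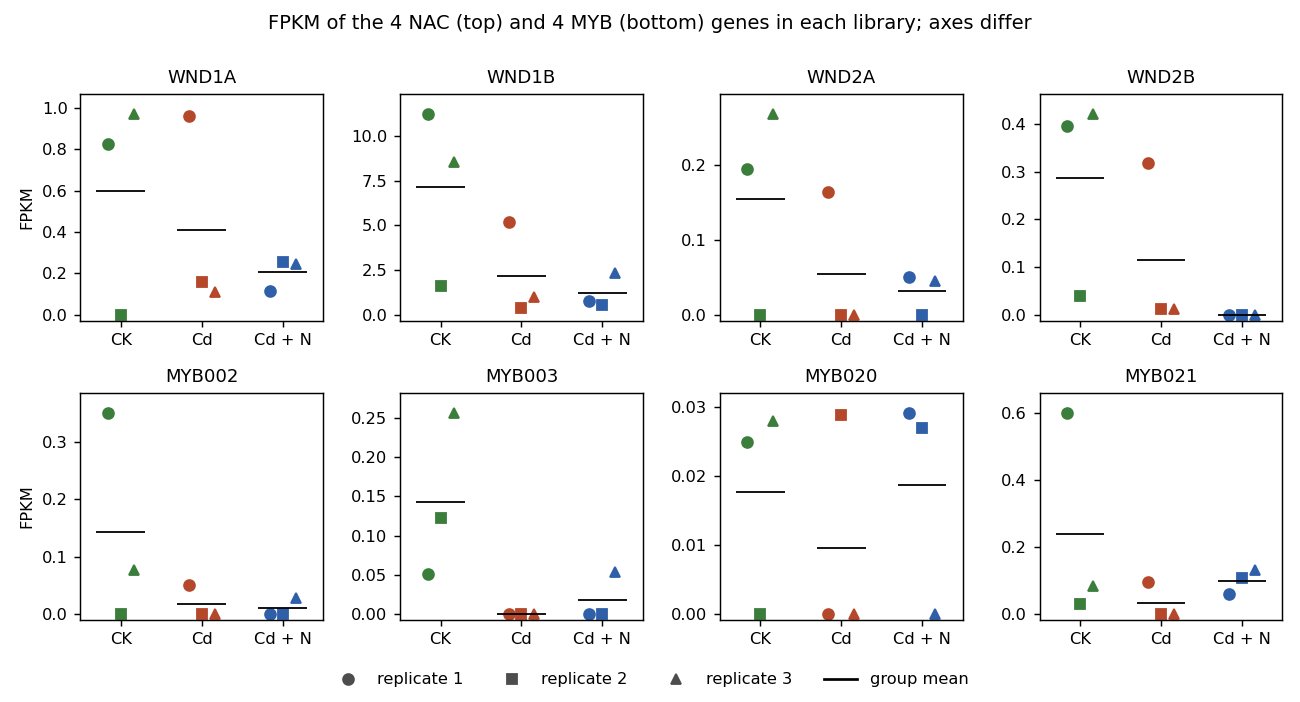
FPKM (vertical axis, from 0, with a scale of its own in each panel) of the 4 NAC and 4 MYB genes in the CK, Cd and Cd + N groups (horizontal axis). Points are libraries, with a marker for each replicate number, and lines are group means. In the 4 NAC panels CK replicates 1 and 3 and Cd replicate 1 are the 3 highest, and WND2B lies at 0 in all Cd + N libraries.

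Among the MYB factors of the second tier, MYB003 was the one for which CK and Cd did not overlap. It had 2, 4 and 9 reads in CK replicates 1, 2 and 3 (0.0507, 0.122 and 0.257 FPKM) and 0 reads in each of the 3 Cd libraries. With Cd set to its limit of 3 counts and the summed CK reads taken as observed, CK was 4.69-fold higher than Cd. Without CK replicate 3, which held 9 of the 15 reads, CK was 2.79-fold higher. The CK reads carry counting error of their own, so the ratio can be lower than these values. With Cd + N the counts were 0, 0 and 2, and the last of these, at 0.0532 FPKM, lay above CK replicate 1. This overlap turned with the scaling of 2 equal counts of 2, since in CPM with TMM factors CK replicate 1 was the higher by 0.0523 to 0.0522. Groups that did not overlap, with Cd lower than CK, were found in 5.46% of the genes with a count, and MYB003 was 1 of the 8 regulators.

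MYB002 had 26, 0 and 5 reads in CK replicates 1, 2 and 3, 3, 0 and 0 reads under Cd, and 0, 0 and 2 reads under Cd + N. Of its 36 reads in all, 26 came from CK replicate 1, so its mean in CK, 0.142 ± 0.185 FPKM (SD, n = 3), rested mainly on that library. MYB021, its paralog, had 24, 1 and 3 reads in CK, 3, 0 and 0 reads under Cd, and 2, 4 and 5 reads under Cd + N. In FPKM this was 0.599, 0.0300 and 0.0842 in CK, and 0.0584, 0.108 and 0.131 under Cd + N, so that Cd + N lay within the range of CK. MYB020, the paralog of MYB003, had 1 read in each of 5 libraries (CK replicates 1 and 3, Cd replicate 2, and Cd + N replicates 1 and 2) and none in the other 4. A difference between groups was not detectable for MYB020 at this depth, where the ratio of CK to Cd, 1.88, had a 95% exact counting interval from 0.0976 to 111.

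Group differences were then tested on the read counts of the 9 libraries by edgeR's quasi-likelihood test, with Benjamini-Hochberg adjustment over the 27378 genes left by a filter on low counts. The 3 comparisons share their groups, and so do their values. WND1A, WND1B and WND2B passed this filter and the other 5 regulators did not. None of the 3 was past the adjusted threshold of 0.05 in any comparison. At this threshold edgeR called 0% of the tested genes when Cd was compared with CK, 0% when Cd + N was compared with Cd, and 0.267% when it was compared with CK. With the replicate number as a block these shares were 0.0146%, 1.14% and 5.27%, and no regulator was past the threshold there either.

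For Cd/CK, the effect of Cd alone, WND1B had a log2 fold change of -1.68 ± 1.08 (standard error, adjusted p = 0.635 by edgeR). That of WND1A was -0.53 ± 1.25 (adjusted p = 0.908), and that of WND2B was -1.29 ± 1.39 (adjusted p = 0.787). The mean level of all 8 regulators was lower under Cd than in CK, MYB020 with 1 read against 2, where 39.7% of the genes with a count had a lower mean FPKM under Cd. That share depends on the scaling and on the genes counted. Of the tested genes, with TMM factors, 49.1% had a log2 fold change below 0. The 8 genes were read from the same libraries and most shared their high libraries, so they do not count as 8 separate observations. An unadjusted p under 0.05 was found for 9.88% of the tested genes and for 0 of the 3 tested regulators. DESeq2 called 1.8% of the genes to which it gave a p-value, and none of the regulators. It gave no adjusted p to WND2A, MYB003 and MYB020 here, so these could not be called. MYB003 alone had an unadjusted p under 0.05 by DESeq2 (0.0368).

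For Cd + N against Cd, the effect of nitrogen under Cd stress, WND1B had a log2 fold change of -0.90 ± 1.08 (standard error, adjusted p = 0.757 by edgeR) and WND1A of -1.03 ± 1.30 (adjusted p = 0.772). WND2B, with 0 reads under Cd + N, had an unadjusted p of 0.0414 and an adjusted p of 0.383 by edgeR. It was the 1 tested regulator with an unadjusted p under 0.05, as 12.5% of the tested genes had. By DESeq2, which called 3.07% of its genes here, the adjusted p of WND2B was 0.0703. MYB003 and MYB020 received no adjusted p from DESeq2 in this comparison, so these could not be called. The means of 5 of the 8 regulators, the 4 NAC genes and MYB002, were lower under Cd + N than under Cd, and those of MYB003, MYB020 and MYB021 were higher, where 55.4% of the genes with a count were lower in FPKM. Of the tested genes, with TMM factors, 52.1% had a log2 fold change below 0. MYB021 had 3 reads in Cd and 11 in Cd + N, a ratio of Cd to Cd + N of 0.292 with a 95% exact counting interval from 0.0523 to 1.11.

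For Cd + N against CK, in which both Cd and nitrogen differ, WND1B had a log2 fold change of -2.58 ± 1.12 (standard error, unadjusted p = 0.0478 and adjusted p = 0.288 by edgeR). That of WND1A was -1.56 ± 1.29 (adjusted p = 0.555). WND2B had an unadjusted p of 0.0167 and an adjusted p of 0.202 by edgeR, while DESeq2 called it lower under Cd + N with an adjusted p of 0.00887, as 1 of the 8 regulators. DESeq2 called 6.13% of its genes in this comparison, and 2.57% of its genes as lower in Cd + N than in CK. It gave no adjusted p to MYB003 and MYB020 here, so these could not be called. By edgeR 2 of the 3 tested regulators, WND1B and WND2B, had an unadjusted p under 0.05, and 17.1% of all tested genes had one. Blocking on the replicate number gave 1442 called genes in place of 73, and the adjusted p of WND2B was 0.0792 and that of WND1B 0.136. The mean of 7 of the 8 regulators was lower under Cd + N than in CK, all but MYB020, where 45.7% of the genes with a count were lower. The same 7 had their highest group mean in CK, as did 28% of the genes with a count. These shares are on FPKM, and with TMM factors 50.2% of the tested genes had a log2 fold change below 0.

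The spread within the groups was wide for the regulators that could be tested. The biological coefficient of variation estimated by edgeR, the relative spread between libraries of a group beyond counting error, was 0.856 for WND1B, 1.04 for WND1A and 1.13 for WND2B. The median over all tested genes was 0.275. The values fitted for genes of the same abundance were higher, at 0.425 for WND1B, 0.591 for WND1A and 0.603 for WND2B. Of all tested genes, whatever their abundance, 96.0% had a lower coefficient than WND1B and 98.8% a lower one than WND2B.

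The sign of the nitrogen comparison rested on 1 library for both WND1 genes. Without Cd replicate 1, the log2 fold change of WND1B became -3.58 for Cd/CK (adjusted p = 0.118 by edgeR) and 0.99 for Cd + N against Cd (adjusted p = 0.658), so that the sign of the latter turned. WND1A turned in the same way, to 0.72 for Cd + N against Cd (adjusted p = 0.838), and its value for Cd/CK was -2.28. WND2B, without that library, went from -1.29 to -4.49 for Cd/CK (adjusted p = 0.152) and had an adjusted p of 0.518 in place of 0.383 for Cd + N against Cd. Without CK replicate 2, WND1B had a log2 fold change of -2.15 for Cd/CK (adjusted p = 0.60 by edgeR) and -3.05 for Cd + N against CK (adjusted p = 0.195), and WND1A had -1.10 and -2.14 (adjusted p = 0.727 and 0.268). WND2B then had -1.80 for Cd/CK (adjusted p = 0.713 by edgeR) and an adjusted p of 0.153 for Cd + N against CK. With each library other than Cd replicate 1 left out, both WND1 genes kept a negative log2 fold change in the 3 comparisons. For Cd/CK the value of WND1A came closest to 0 at -0.03. For Cd + N against CK the value of WND1B lay from -3.43 to -2.07 when single libraries were left out, and its adjusted p from 0.144 to 0.642.

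**Figure D3:**
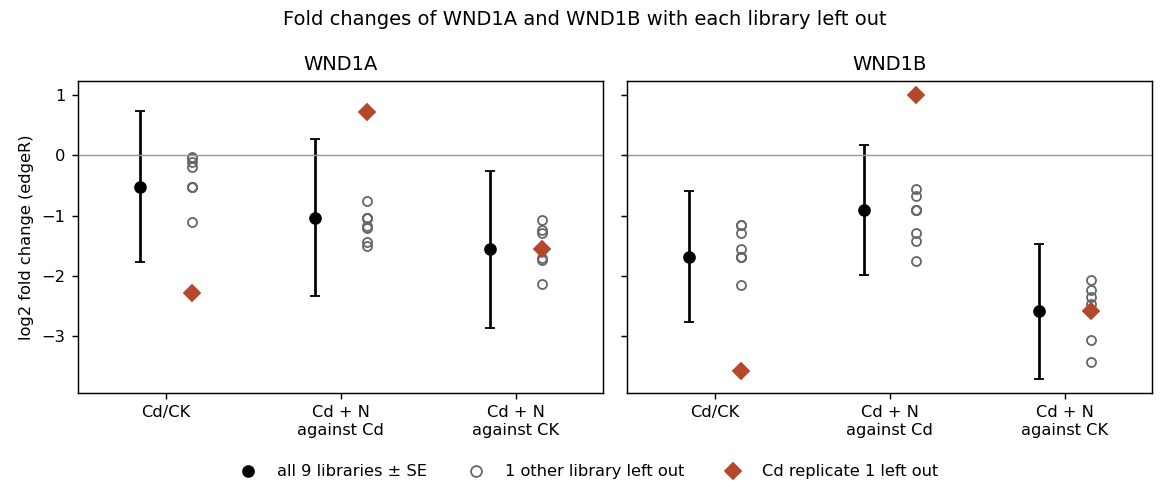
Log2 fold changes by edgeR (vertical axis) of WND1A and WND1B in the 3 comparisons (horizontal axis). Black points with bars are the values from 9 libraries with their standard error, open circles leave out 1 other library and diamonds leave out Cd replicate 1. The diamonds lie above 0 for Cd + N against Cd, at 0.72 for WND1A and 0.99 for WND1B, and below the other points for Cd/CK.

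The libraries in which the regulators were high were largely the same from gene to gene. CK replicates 1 and 3 and Cd replicate 1 were the 3 highest libraries for 5 of the 8 genes, the 4 NAC genes and MYB002. The exceptions were MYB003, MYB020 and MYB021. This set of libraries was noticed in the values of the regulators, and it was not particular to them. It was the most frequent of the 84 possible sets over all tested genes, with 2628 of 27378 genes or 9.60%. Besides Cd replicate 1, nearest to CK replicate 1 as given above, CK replicates 1 and 3 lay nearest to each other over all genes, at 0.599. Among the libraries, CK replicate 1 had the largest total count and Cd replicate 1 the smallest. The 50 most abundant genes took 12.6% to 15.1% of the counts in these 3 libraries and 9.29% to 12.5% in the other 6. The part of the total counts or of this difference in the levels of the regulators was not tested.

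In the WND1 pair, WND1B supplied most of the transcript, while the other pairs had too few reads for a share in most libraries. WND1A took 6.85%, 0% and 10.2% of the FPKM of its pair in CK replicates 1, 2 and 3, 15.6%, 31.6% and 10.1% under Cd and 12.7%, 31.4% and 9.67% under Cd + N. WND1B was thus the major copy in each library, although the 22 reads of the pair in Cd replicate 2 left a 95% exact binomial interval from 13.8% to 54.6% for WND1A. The mean share was 5.70% ± 5.22 (SD, n = 3) in CK, 19.1% ± 11.2 for Cd and 17.9% ± 11.8 for Cd + N. Exact two-sided permutation tests showed no difference, with p = 0.2 for CK against Cd and against Cd + N, and p = 0.7 for Cd against Cd + N. After adjustment over these 3 tests the values were 0.3, 0.3 and 0.7. With 3 libraries against 3, this test cannot give a p under 0.1. How reads that match both copies were assigned is not stated in the sources used here, so these shares are uncertain.

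**Figure D4:**
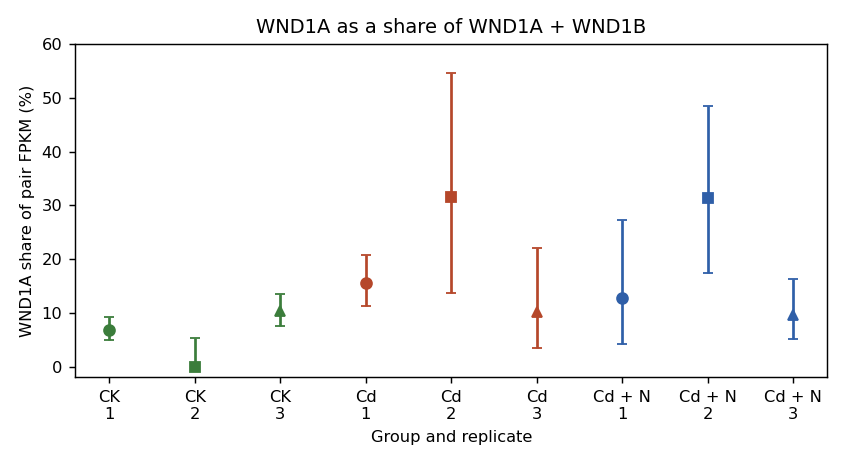
WND1A as a percentage of the summed FPKM of WND1A and WND1B (vertical axis) in each library (horizontal axis). Bars are 95% exact binomial intervals of the read counts, rescaled for gene length, and cover counting error only. The highest shares, 31.6% in Cd replicate 2 and 31.4% in Cd + N replicate 2, come from 22 and 38 reads.

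For the other pairs a share was computed only where a library held at least 10 reads of the pair. WND2A took 33.0% and 38.9% of the FPKM of its pair in CK replicates 1 and 3 and 33.9% in Cd replicate 1. The upper ends of their 95% exact intervals were 51.0%, 56.3% and 56.5%. These shares depend on the gene lengths behind the FPKM values, since in reads alone WND2A had 20.0%, 24.4% and 20.7%. The length recovered for WND2B, 2262 bases, was longer than that for WND2A, 1149 bases, and what these lengths measure was not established. MYB002 took 36.9% of the FPKM of its pair with MYB021 in CK replicate 1, with a 95% exact interval from 24.4% to 51.6%, and 52.0% of the reads, again with unequal lengths of 1848 and 999 bases. MYB003 took 90.2% of the FPKM of its pair with MYB020 in CK replicate 3, from 10 reads and with an interval from 55.9% to 99.8%.

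Only WND1B was abundant enough, at a mean of 4.55 CPM, for a search of genes with a similar pattern over the 9 libraries. The 2 most similar of 27375 genes were Potri.016G092700.v3.0 and Potri.002G040200.v3.0, both with Pearson's r = 0.98 and Spearman's rho = 0.97 in log2 CPM. Without CK replicates 1 and 3, the libraries farthest from the median of WND1B, r was 0.96 for both. The FPKM of Potri.016G092700.v3.0 was 1.26, 0.160 and 1.39 in CK replicates 1, 2 and 3, 0.857, 0.0239 and 0.149 under Cd, and 0.0991, 0.0570 and 0.151 under Cd + N. That of Potri.002G040200.v3.0 ranged from 3.73 in Cd replicate 2 to 9.32 in CK replicate 1. In all, 407 genes had an r over 0.9 with WND1B. The points share their libraries and the frequent order of libraries described above, so these values are a description.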

How the data were processed

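RNA sequencing of leaves gave 9 libraries, 3 per group, with groups and replicate numbers from the sample labels. The deposited tables hold raw read counts, which the authors had not normalized, and FPKM, which equals the count scaled to gene length and total count (relative tolerance 1e-06). The submitters' processing notes name Bowtie2 2.0.6 and TopHat2 2.0.12, without their settings. For the counting tool, strand setting and genome build, nothing was given in the sources used here. The 34971 lengths recovered from FPKM and counts were all multiples of 3.

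Counts were tested in R 4.3.3 with edgeR 4.0.16 (TMM factors, filterByExpr with a minimum count of 10 and a minimum total of 15, quasi-likelihood test on all 9 libraries without a block, Benjamini-Hochberg threshold of 0.05). The test was tried on simulated data, with changes planted only in genes of higher mean CPM than the 3 tested regulators. That check therefore does not show whether changes in genes as weak and variable as these would be found. Standard errors were taken as the log2 fold change divided by the root of F. Alternatives were DESeq2 1.42.0, limma 3.58.1 on FPKM, other factors, filters and samples, and a replicate block. In CK and Cd + N, the deviations of all 3 same-numbered pairs of libraries correlated at 0.18, 0.32 and 0.12, each over 0.1, the value required to treat numbers as pairs. In each other comparison 2 of 3 pairs did, and the labels do not say what a number shares. Cd + N against CK thus met that value, but the fit without a block was kept as the main one for all 3 comparisons. The block is given as an alternative. Intervals (95%) and the limit of 3 counts for a count of 0 cover counting error only. Fold values at that limit take the reads of the other group as observed. Figures were drawn with matplotlib 3.10.9.

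All 8 regulators are named, and the 2 genes most like each regulator with a mean of at least 1 CPM. The members and lists were chosen with earlier results of these data known. Lists of 53 identifiers for other wall genes and of cell type markers were to be run only with an annotation, and they were not run.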

Additional observations from a re-analysis of the deposited data

How the results depend on the processing

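WND2B in Cd + N against CK by DESeq2 was the one call of a regulator. It was 1 of 8, of which MYB003 and MYB020 had no adjusted p there. No regulator was called by edgeR or limma in any comparison or setting. The DESeq2 log2 fold change of WND2B was -7.04. That fitted value depends on how the fit treats 3 libraries without a read and is no bound. The replicate block changed no call of a regulator. Of the alternative fits of WND1A, WND1B and WND2B, 136 kept direction and call. With single libraries left out, the log2 fold change in Cd + N against Cd ran from -1.50 to 0.72 for WND1A and from -1.75 to 0.99 for WND1B, above 0 only without Cd replicate 1. For WND2B the range was -4.49 to -0.73 in Cd/CK, and its fitted value in Cd + N against Cd went from -6.29 to -3.11 without Cd replicate 1. WND2B was not tested with only the 2 groups in the comparisons with Cd + N, and neither WND1A nor WND2B in the filtered FPKM fits. Of the 5 regulators removed by the filter, MYB003 had the smallest p by edgeR without it, 0.0149 for Cd/CK (adjusted p = 0.464).

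Over all genes, edgeR called 0 for Cd/CK, 0 for nitrogen under Cd, and 73 when Cd + N was set against CK. In the same order DESeq2 called 627, 1069 and 2133, and the replicate block gave 4, 313 and 1442. The nitrogen comparison under Cd had 2 calls with only the 2 groups, 61 with limma on log2(FPKM + 1) and 25 with limma without a filter. Against CK, limma gave 240 calls, 179 without a filter and 197 on log2(FPKM + 0.1). Leaving out single libraries gave 0 to 499, 0 to 22 and 0 to 440 calls, the highest without Cd replicate 1, CK replicate 2 and Cd replicate 1. At an unadjusted p under 0.05, edgeR gave 2706 genes in the first comparison and 3422 in the second. The cause was not tested.

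The WND1A share differed by -1.19 percentage points between Cd + N and Cd, and by -7.92 to 5.06 with single libraries left out. It kept its sign in the other comparisons but fell from 13.4 to 7.16 points for Cd/CK without Cd replicate 2 and from 12.2 to 5.50 for Cd + N against CK without Cd + N replicate 2. Depth limits 5 of the 8 regulators, which had 5 to 42 reads in all.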
